A study of Homo sapiens and Mus musculus with 33 samples.

Results

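In HCT116 cells, 208 of 40266 peaks of histone H3 lysine 18 crotonylation (H3K18cr) or acetylation (H3K18ac) lay at a gene start, with every gene start nearby belonging to a gene with few or no RNA counts and at least 1 of those genes carrying an identifier outside certain clone series. These marked promoters of silent genes were chosen by position, width and RNA counts. Each peak was narrower than 10 kb and lay within 1 kb of a gene start, and every gene starting within 5 kb of it had under 10 RNA-seq counts summed over 8 libraries. At least 1 of the genes within 5 kb had to carry an identifier outside the LINC, RP, CT, AC and AL series. Clone identifiers of other series, such as AP000892.4, AF015262.2 and XXyac-YX65C7_A.3, passed this rule, so some members have no gene with an established name. A gene that passed started within 1 kb of 200 of the peaks, and at the other 8, among them those listed under CXCR5, CD248 and C19orf84, only genes of the excluded series did. Of 11646 peaks narrower than 10 kb at a gene start, 10903 had a gene with 10 or more counts within 5 kb, and 535 had only silent genes of the excluded series. The RNA counts, widths, positions and the presence of a peak were therefore selected on, and are given as descriptions without a test.

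HCT116 is a human colorectal carcinoma cell line. The cells received 5 µM MS275, an inhibitor of class I histone deacetylases also known as entinostat, or DMSO as vehicle for 18 hours. Chromatin was immunoprecipitated with antibodies against H3K18cr and H3K18ac, giving 3 libraries for each mark and treatment, with 1 input library for each treatment, and RNA-seq comprised 4 libraries for each treatment. The study's methods call the HCT116 RNA-seq replicates biological and speak of a pair of replicates for HCT116 H3K18cr ChIP-seq, whereas a figure legend of the study gives 3 for both marks, as are in the peak table, and all were used. For HCT116 ChIP followed by qPCR they describe biological and technical replicates, but whether this covers the ChIP-seq libraries is not stated, so their p-values measure the spread between these libraries, which may be technical. Colon epithelial cells of C57BL/6 mice, profiled by RNA-seq (3 libraries), H3K18cr (2 libraries) and H3K4me3 (3 libraries), served to look up the same genes in normal tissue.

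Acetyl and crotonyl groups on lysine 18 of histone H3 are added by the same acetyltransferases, p300 and CBP, from acetyl-CoA and crotonyl-CoA, and class I histone deacetylases remove both. The marks are typical of active promoters and enhancers, and proteins that read them help to recruit the transcription machinery. Most promoters of vertebrate genes with broad activity lie in CpG islands, where CG dinucleotides are frequent, whereas many tissue-specific genes start in CpG-poor sequence.

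Depth and identity of the libraries set the limits for the promoters described here. Reads in peaks ranged from 2236551 to 5730094 per ChIP library and were 1550122 and 1374609 in the DMSO and MS275 input. The RNA libraries held 35608533 to 53415604 counts. Between 47.7% and 55.4% of genes were listed at 0 in each, while only 185 to 901 genes had exactly 1 count, and 50.3% to 75.3% of the counts from 1 to 40 were odd numbers. Counts this low do not behave as simple read numbers, so silent here means listed under the limit of 10 and not an absence of RNA. Of 8 epithelial and colon markers, EPCAM, CDH1, KRT8, KRT18, KRT19 and CDX2 had 601 or more counts in every library, CDX1 was listed at 0 in all, and VIL1 had at most 50. Markers of immune cells (PTPRC, CD3E, MS4A1, LYZ) had at most 24 counts and endothelial markers (PECAM1, VWF, CDH5) at most 39, and among the stromal markers COL1A1 had 275 to 712, VIM 75 to 170, COL1A2 at most 20 and DCN at most 13.

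The 208 peaks lay beside 226 gene entries with 217 different names. According to the GENCODE 44 annotation of GRCh38, 117 of the entries were protein-coding genes, 47 were long noncoding RNAs, 5 were T cell receptor segments, 4 were short RNAs and 53 had no match. A protein-coding gene started within 1 kb of 116 peaks. Peak centres lay in an intron in 94 cases, between genes in 70, in a coding or noncoding exon in 32 and in the UTR part of an exon in 12. A total of 63 peaks overlapped the body of a gene with 10 or more counts, and 30 had an annotated transcript start of such a gene within 5 kb, although the deposited gene start lay elsewhere. The 108 peaks at protein-coding genes without such a transcript start are called strict members below. There were 9 genes with a pair of member peaks each, among them CMTM2, DSCAML1, SYT8 and TRIM55, so the peaks are not all independent.

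The members were sorted into families by patterns of gene names, which leave out some genes of each kind. Antisense and intronic transcripts, named after the gene they overlap, made up 36 peaks, none of them strict. Immune genes made up 13, among them the cytokine genes CSF2, IL1A and IL24 and the receptors CCR3, CD209 and CLEC4M. The list of solute carriers and enzymes of metabolism took 11, without enzyme genes such as ACOT1 and ACADL. The list of olfactory and other G protein-coupled receptors took 6, without CCKAR, AVPR1B and OXER1, whose names its patterns do not hold. Muscle and keratin genes made up 5, as did genes of synapses and neuronal adhesion, and the list of developmental transcription factors took 4, namely ATOH7, GATA4, NR0B2 and NR2E3. Genes of testis and germ cells, listed together with open reading frames of provisional name such as C9orf131, made up 14. The list of short structural RNAs took 3, of which VTRNA2-1 and SNORD3D are annotated as such and U51244.2 had no match, and 3 were at microRNA genes or hosts, 2 in the zinc finger list and 1 at the ligand gene FGF3. The remaining 105 had no listed family, among them LBX1, a homeobox gene of muscle and spinal cord development that the name patterns missed.

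At the limit of 10 counts, the peaks of SLC35F4, PEX5L-AS2 and CRYBB1 were just inside, where the highest count of any gene within 5 kb was 9, and for CRYBB1 this was a neighbouring gene. Promoter peaks beside HEMGN and a pair of clone-named genes were just outside, with 10. Enrichment over input, on the log2 scale, was 0.26, 0.92 and 1.80 inside and 0.34, 0.52 and 1.28 outside. The widest members, at MIR181A1HG, TRIM55 and AF015262.2, were 9750, 9300 and 8250 bp wide, and the narrowest silent peaks beyond the limit, at TBPL2 and a pair of clone-named genes, were 10050, 10350 and 10500 bp.

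Sequence was not used in choosing the members, and at the peak centre it differed from that of marked promoters at expressed genes. Peak centres can lie away from the gene start, by 2555 bases at ALLC, so the windows are not all at the start. With distances taken from the peak centre, 139 peaks were members, and their composition was not computed separately. In the 300 bases around the peak centre (GRCh38), the median ratio of observed to expected CG dinucleotides was 0.26 in the members, 0.77 at promoter peaks near an expressed gene and 0.18 in peaks away from gene starts. The median GC content was 53.0%, 65.0% and 46.7%. Taking windows with a ratio over 0.6 and over 50% GC as CpG-rich, 35 of 208 members (16.8%) were CpG-rich, against 67.8% of promoter peaks near an expressed gene and 5.87% of peaks away from gene starts. The 535 peaks at silent genes of the excluded series gave 16.4%, with a median ratio of 0.25. The strict members gave 15.7%, so the difference did not rest on the peaks near a transcript start of an expressed gene.

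**Figure D1:**
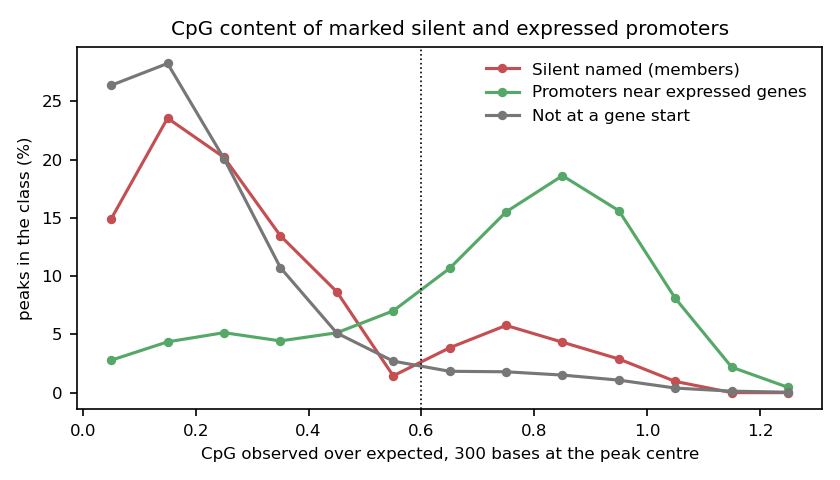
The x axis is the ratio of observed to expected CG dinucleotides in 300 bases at the peak centre and the y axis the percentage of peaks of each class, in steps of 0.1. The members have a median of 0.26, the peaks away from gene starts 0.18 and promoter peaks near an expressed gene 0.77, most of the latter beyond the dotted line at 0.6.

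Single members ranged from CpG-poor to CpG-rich. The 250 bases before the RefSeq start are given for the 5 of the 12 most enriched strict members whose RefSeq start lay within 300 bp of the start in the gene table, 5′ to 3′ on the gene's strand, with CG dinucleotides in capitals. FCRLA, coding for an Fc receptor-like protein of B cells, has 1 CG in chr1:161706979-161707228 (GRCh38.p14, plus strand). CFAP126, a gene for a protein of cilia, has 4 in chr1:161367877-161368126 (minus strand). ATOH7, a transcription factor gene of the developing retina, has 6 in chr10:68232114-68232363 (minus strand). The histone H4 gene HIST1H4J, now named H4C11, has 13 in chr6:27823842-27824091 (plus strand), and LRRC10B, for a leucine-rich repeat protein, has 28 in chr11:61508499-61508748 (plus strand). The stretches of FCRLA, CFAP126, HIST1H4J and LRRC10B lie wholly inside the peak, and that of ATOH7 lies outside it, because its peak covers the gene's transcribed part.
FCRLA: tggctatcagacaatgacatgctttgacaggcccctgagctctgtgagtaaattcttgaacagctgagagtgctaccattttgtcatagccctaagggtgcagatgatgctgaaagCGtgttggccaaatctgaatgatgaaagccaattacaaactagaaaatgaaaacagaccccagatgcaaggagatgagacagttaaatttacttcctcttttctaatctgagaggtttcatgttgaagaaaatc
CFAP126: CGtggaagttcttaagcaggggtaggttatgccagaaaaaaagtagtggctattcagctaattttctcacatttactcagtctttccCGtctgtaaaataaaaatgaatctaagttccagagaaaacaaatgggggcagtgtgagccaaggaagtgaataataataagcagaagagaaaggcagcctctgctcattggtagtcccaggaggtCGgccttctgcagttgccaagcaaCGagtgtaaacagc
ATOH7: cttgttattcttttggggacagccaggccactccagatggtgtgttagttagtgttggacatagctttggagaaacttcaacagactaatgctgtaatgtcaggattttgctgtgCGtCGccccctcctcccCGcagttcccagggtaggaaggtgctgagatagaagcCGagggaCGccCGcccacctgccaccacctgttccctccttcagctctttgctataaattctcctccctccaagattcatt
HIST1H4J: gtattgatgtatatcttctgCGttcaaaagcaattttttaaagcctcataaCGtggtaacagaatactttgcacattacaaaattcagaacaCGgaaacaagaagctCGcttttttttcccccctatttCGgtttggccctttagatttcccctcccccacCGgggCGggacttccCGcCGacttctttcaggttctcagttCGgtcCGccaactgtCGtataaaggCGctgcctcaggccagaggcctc
LRRC10B: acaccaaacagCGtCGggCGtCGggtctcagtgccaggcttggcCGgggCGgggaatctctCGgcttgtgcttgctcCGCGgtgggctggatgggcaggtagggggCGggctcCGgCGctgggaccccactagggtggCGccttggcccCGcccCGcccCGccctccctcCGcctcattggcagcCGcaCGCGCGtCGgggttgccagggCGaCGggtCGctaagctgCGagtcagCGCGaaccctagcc

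A search for 8 short motifs on both strands of the 300 bases at the peak centre gave the same picture. The GC box GGGCGG, bound by SP1, occurred in 22.1% of members, 57.2% of promoter peaks near an expressed gene and 23.3% of all peaks. The ETS motif CCGGAAG occurred in 2.40%, 10.1% and 4.07%. The AP-1 motif TGANTCA, frequent in enhancers, occurred in 15.9% of members, 4.93% of promoter peaks near an expressed gene and 14.7% of all peaks. TATAAA occurred in 11.1%, 5.07% and 13.8%, CCAAT in 31.7%, 23.8% and 30.8%, and CTTTGAT, bound by TCF proteins, in 3.85%, 1.66% and 3.71%. The CTCF core AGGGGGCGC was found in 2 members (0.962%, against 2.32% and 0.882%) and the repressor half-site TTCAGCACC in none (against 0.312% and 0.310%).

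The members also held 2 microRNA genes, MIR145 and MIR194-2, named here because they are the only microRNA precursors among them. The counted gene entries, chr5:149430286-149432834 and chr11:64889560-64893449, are far longer than a mature microRNA. Their low counts therefore do not measure the mature RNAs. The mature sequences from RefSeq (GRCh38.p14) are given with the seed, bases 2 to 8, in capitals. Those of MIR145 lie at chr5:149430661-149430683 and chr5:149430699-149430720 on the plus strand, and those of MIR194-2 at chr11:64891404-64891425 and chr11:64891368-64891389 on the minus strand. The MIR145 sequences lie inside the member peak, and the MIR194-2 sequences lie outside theirs. No seed was shared.
hsa-miR-145-5p: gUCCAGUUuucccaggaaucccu
hsa-miR-145-3p: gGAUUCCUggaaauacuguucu
hsa-miR-194-5p: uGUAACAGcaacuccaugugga
hsa-miR-194-3p: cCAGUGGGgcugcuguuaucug

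At the MIR145 peak (chr5:149426851-149432100), whose gene is known for its expression in smooth muscle, the H3K18cr libraries with DMSO held 197, 216 and 195 scaled reads and the input 80.8. Scaled reads are the deposited values brought back from the log2 scale, in units of the largest library. At the MIR194-2 peak (chr11:64893301-64894500), of a microRNA known from intestinal epithelium, they held 38, 31.4 and 29.4 with 11.7 in the input. Both peaks were over input in every ChIP library.

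Marked promoters of silent genes carried both marks at about 2 times the input. The median enrichment over input with DMSO was 2.10-fold for H3K18cr and 1.95-fold for H3K18ac over the 208 members. It was 3.15-fold and 3.30-fold at promoter peaks near an expressed gene, and 1.95-fold and 1.86-fold in peaks away from gene starts. The 535 peaks at silent genes of the excluded series had 2.07-fold and 1.90-fold. Since being a peak was part of the choice, the levels describe the members and are not tested. Only 28 members (13.5%) were above the median enrichment of promoter peaks near an expressed gene, and 11 (5.29%) exceeded the input 4-fold, against 29.2% of those promoters. The median width was 1650 bp, against 2550 bp near an expressed gene. With 1 input library per treatment, the error of the input is unknown, and 29 members had under 10 scaled reads in the DMSO input.

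**Figure D2:**
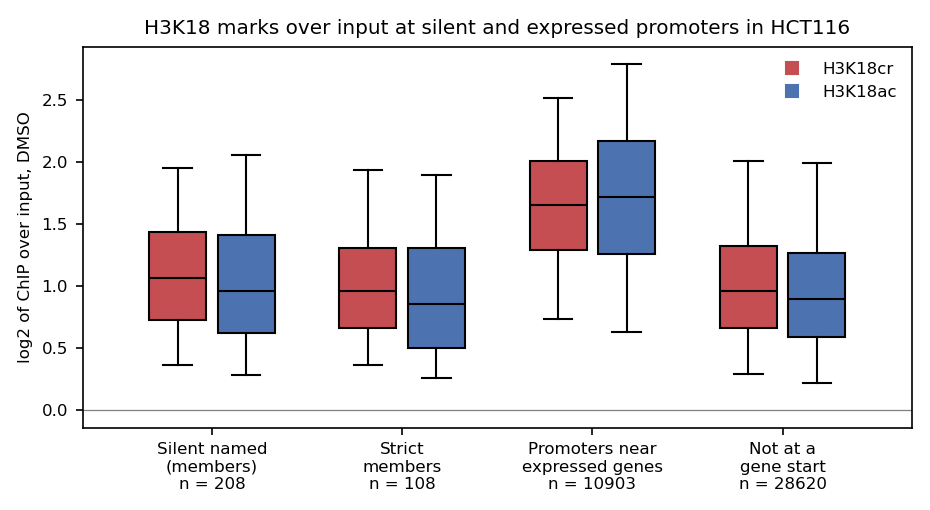
The y axis is the log2 ratio of ChIP to input with DMSO (mean log2 of 3 libraries per mark minus the single input) for the members, the strict members, promoter peaks near an expressed gene and peaks away from gene starts. Boxes span the quartiles, the line is the median and whiskers reach the 5th and 95th percentiles; the medians for H3K18cr and H3K18ac are 1.07 and 0.96 in the members, 0.96 and 0.90 away from gene starts, and 1.66 and 1.72 near an expressed gene.

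The 12 most enriched strict members, among those with at least 10 scaled reads in the DMSO input, were ARL14, FCRLA, CFAP54, ATOH7, HIST1H4J, KLK15, CFAP126, CCKAR, LRRC10B, MYBPC2, CCR3 and FAM183A. Their enrichment, averaged over the 6 ChIP libraries with DMSO, ran from 3.31-fold to 2.44-fold. ARL14, coding for a small GTPase of vesicle transport, had the highest value. At its peak (chr3:160675501-160679550) the H3K18cr libraries held 192, 169 and 144 scaled reads with DMSO and the H3K18ac libraries 138, 175 and 236, with 52.2 in the input. Each ChIP library was thus well above the input, and the 2 marks overlapped.

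FCRLA (chr1:161706451-161707800) held 29, 31.4 and 34 scaled reads of H3K18cr and 36.2, 40.7 and 33.5 of H3K18ac, with 10.4 in the DMSO input. Its MS275 input held 31.1, close to the ChIP values with MS275 (41.6, 31.2 and 25.3 for H3K18cr), so its rank rests on a low DMSO input. ATOH7 (chr10:68230801-68232000) held 56, 45 and 40.2 scaled reads of H3K18cr and 44.1, 43.7 and 43.8 of H3K18ac, with 14.3 in the input. KLK15 (chr19:50834551-50837250), of the kallikrein proteases, held 151, 149 and 167 of H3K18cr and 128, 151 and 201 of H3K18ac, with 54.8 in the input.

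CCKAR, the receptor gene for the gut hormone cholecystokinin, was among the shallower of the 12. Its peak (chr4:26490601-26491650) held 28, 16.4 and 34 scaled reads of H3K18cr and 39.6, 24.1 and 29.6 of H3K18ac over 10.4 in the input, and 1 H3K18cr library was within 2-fold of the input. CCR3 (chr3:46162051-46164450), the eotaxin receptor gene of eosinophils, held 97, 104 and 105 of H3K18cr and 71.3, 87.5 and 107 of H3K18ac over 37.8 in the input. MYBPC2 (chr19:50430901-50433000), of fast skeletal muscle, held 122, 128 and 124 and 125, 121 and 165 over 50.8, and its peak overlapped the body of SPIB, which had 10 or more counts. All 6 ChIP libraries were above the input at each of these peaks.

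**Figure D3:**
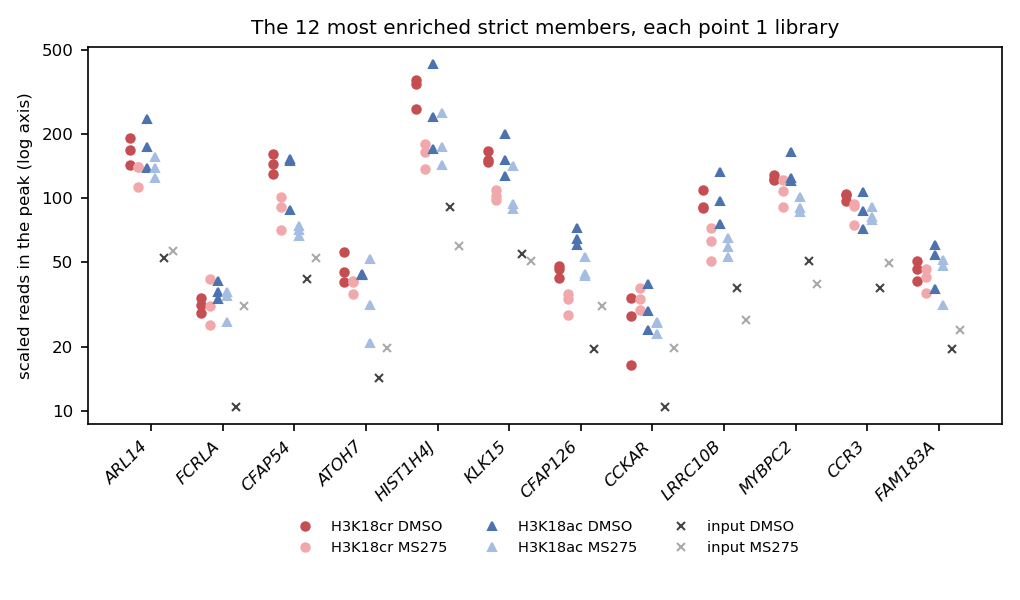
The y axis is the number of scaled reads in the peak, on a log axis, and each point is 1 library of the 12 most enriched strict members, with H3K18cr as circles, H3K18ac as triangles, input as crosses and MS275 in the pale colour. The ChIP libraries with DMSO lie above the DMSO input at all 12, and H3K18cr with MS275 lies below every DMSO library at ARL14, CFAP54, HIST1H4J, KLK15, CFAP126, LRRC10B and CCR3.

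By family, the median enrichment was 2.29-fold in antisense and intronic transcripts, 2.00-fold in immune genes, 2.07-fold in muscle and keratin genes, 1.81-fold in solute carriers and enzymes, 1.75-fold in developmental transcription factors, 1.59-fold in synaptic genes and 1.52-fold in the 6 listed G protein-coupled receptors, beside 1.99-fold over all members. It was 2.08-fold in the germline and testis list. The small lists stood higher, with 2.71-fold at 3 microRNA peaks, 2.52-fold at 3 short RNA peaks and 2.32-fold at 2 zinc finger peaks. Among the immune genes CD93, a receptor of endothelial and myeloid cells, stood at 3.83-fold, but its input held only 3.91 scaled reads. KRT5, the keratin of basal epithelia, stood at 2.21-fold and GATA4, a transcription factor of heart and gut endoderm, at 1.77-fold. Among solute carriers, the betaine transporter gene SLC6A12 reached 5.3-fold and the amino acid transporter gene SLC7A10 4.85-fold, over inputs of 3.91 and 6.52. OR2Y1, an olfactory receptor gene, had the largest ratio of all members, 8.98-fold, which rests on 11, 9.55 and 15.5 scaled reads of H3K18cr over 1.3 in the input. Further named members were the growth factor gene FGF3 (1.92-fold), the zinc finger gene ZNF536 (2.43-fold), the lipid receptor gene GPR55 (1.76-fold), the synaptic genes LRFN2 and SYT8 (1.59-fold and 1.57-fold) and C9orf131 (2.21-fold). Enrichment was higher in the 35 CpG-rich members (median 2.80-fold) than in the other 173 (1.91-fold).

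Both marks stood at the same silent promoters. Over the 208 members the mean log2 values of H3K18cr and H3K18ac with DMSO correlated with r = 0.977, and their log2 ratios to the shared input with r = 0.882, as in all 40266 peaks (0.983 and 0.905). These are descriptions over peaks that share depth, width and input. By limma across all peaks, no member differed between H3K18cr and H3K18ac with DMSO at an adjusted p under 0.05, as did 0% of the 40052 peaks tested. At an unadjusted p under 0.05 there were 7 members by limma, 10 by edgeR and 8 by DESeq2, and over all 40052 peaks 2217, 2446 and 3190. After adjustment edgeR called 0 members, and DESeq2 0 of the 33 to which it gave an adjusted p. Over all peaks edgeR also called 0, whereas DESeq2 called 337 of 11321 with an adjusted p and limma with TMM scaling 118 of 40052. The median difference was 0.06 on the log2 scale in the members and 0.03 in all peaks. With 3 libraries each, a missed threshold does not show that levels were equal.

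With MS275, H3K18cr fell at 25 of 208 members (12.02%) and rose at none, by limma at an adjusted p under 0.05. These calls are on the deposited scaling, which gives each peak's share of reads and not an absolute level. Under TMM scaling, given below, 8 were lower and 5 higher. Over all 40026 peaks tested, 23% were lower and 0.232% higher. The share was 58.3% at promoter peaks near an expressed gene and 9.72% in peaks away from gene starts. The median change was -0.15 on the log2 scale in the members, -0.20 in all peaks and -0.57 at promoter peaks near an expressed gene. At an unadjusted p under 0.05, 35 members were lower and 5 higher, against 12763 of all 40026 peaks in either direction. After adjustment edgeR called 28 lower and 0 higher, and DESeq2 4 lower and 1 higher of 60 members with an adjusted p. Here edgeR kept the deposited scaling, whereas DESeq2 set its own from the reads in peaks. Over all peaks edgeR called 9998 lower of 40026 and DESeq2 3392 lower of 16746 with an adjusted p. With the replicate number as a block in limma, 28 members were lower and 1 higher, against 10448 and 206 of all 40026 peaks. Of the 25, 6 were strict members (ACOT1, HIST1H4J, CFAP54, LRRC10B, KLK15 and PLA2G2E), and 10 overlapped the body of an expressed gene.

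The largest falls of H3K18cr were at ACOT1, HIST1H4J, AP000688.11, FAM221B and AP000892.4. HIST1H4J (chr6:27820951-27826050), whose promoter is shown above, held 358, 344 and 263 scaled reads of H3K18cr with DMSO and 165, 137 and 179.6 with MS275. No library with MS275 reached the lowest with DMSO, and the change was -0.996 ± 0.17 (SE, n = 3 and 3; adjusted p = 9.6e-05). The input also differed, at 91.3 with DMSO and 59.4 with MS275, and its part in the change was not tested. The H4 genes code for near-identical proteins and their mRNAs lack a poly(A) tail, so the low RNA counts of this gene do not measure its transcription.

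ACOT1, an acyl-CoA thioesterase gene with a close paralog, had the largest change but few reads. Its peak (chr14:73537951-73538400) held 24, 17.7 and 18.6 scaled reads with DMSO and 10.1, 11.3 and 4.21 with MS275, a change of -1.34 ± 0.42 (SE, n = 3 and 3; adjusted p = 0.018). The groups did not overlap, but the call was lost without DMSO replicate 1 (adjusted p = 0.11) or MS275 replicate 3 (adjusted p = 0.098), and the input moved the other way, from 3.91 to 9.91. CFAP54 (chr12:96488251-96490800), a gene for a protein of cilia and flagella, held 130, 145 and 161 with DMSO and 91.1, 70.8 and 101 with MS275. Its change was -0.74 ± 0.18 (SE, n = 3 and 3; adjusted p = 0.0031), again without overlap.

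The other leading falls were at peaks inside expressed genes. FAM221B (chr9:35828401-35830200) lay in the body of TMEM8B, and its H3K18cr went from 117, 134 and 118 scaled reads to 60.7, 59.5 and 81.4, a change of -0.88 ± 0.19 (SE, n = 3 and 3; adjusted p = 7.8e-04). AP000688.11 lay in SETD4 and changed by -0.89 ± 0.19 (SE, n = 3 and 3; adjusted p = 6.9e-04). AP000892.4 lay in CEP164 and changed by -0.83 ± 0.17 (SE, n = 3 and 3; adjusted p = 6.4e-04). At all 3 the libraries with MS275 lay below all those with DMSO. The largest rises, none of which passed the test without a replicate block on the deposited scaling, were at the histone gene HIST1H2BB (1.36 ± 0.57 (SE, n = 3 and 3; adjusted p = 0.085)), at SPP2, coding for a secreted phosphoprotein (0.78 ± 0.34 (SE, n = 3 and 3; adjusted p = 0.099)), and at CALB1, coding for a calcium-binding protein (0.70 ± 0.31 (SE, n = 3 and 3; adjusted p = 0.1)). At each of them H3K18cr DMSO and MS275 libraries overlapped, and at HIST1H2BB the DMSO libraries held 14, 10.9 and 1.55 scaled reads, so the difference rests on DMSO replicate 3. It was called with the replicate block (adjusted p = 0.018 by limma) and without DMSO replicate 1 or 2 (adjusted p = 0.020 and 0.018 by limma). Without DMSO replicate 3 it was 0.36 (adjusted p = 0.57). SPP2 and CALB1 were called with TMM scaling (adjusted p = 0.047 and 0.049), and CALB1 also without DMSO replicate 3 (adjusted p = 0.039).

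H3K18ac fell at 14 members and rose at 1 by the same test, against 16.3% lower and 0.264% higher over the 40122 peaks tested. Under TMM scaling, given below, 14 were lower and 16 higher. With the replicate number as a block, as in a paired comparison, 1 was lower and 0 were higher (21 at an unadjusted p under 0.05, against 7354 of all peaks), and 814 of all 40122 peaks were called in place of 6640. By edgeR 14 were lower and 1 higher, against 6561 lower and 94 higher of all 40122. By DESeq2, with its own scaling, 8 were lower and 2 higher of 91 members with an adjusted p, against 5289 and 359 of 21453 peaks. The median change was -0.10 on the log2 scale in the members, -0.19 in all peaks and -0.63 at promoter peaks near an expressed gene, where 46.1% were lower. At an unadjusted p under 0.05, 29 members were lower and 9 higher, against 10627 of all 40122 peaks in either direction. Of the 14, 13 were also among the 25 with lower H3K18cr, and the only other was IFT74-AS1. The largest fall was at SNORD3D, 1 of several near-identical genes for the U3 small nucleolar RNA, which processes ribosomal RNA. Its peak (chr17:19111051-19111800) held 30.6, 45.2 and 48.9 scaled reads with DMSO and 19.5, 8.25 and 21 with MS275, a change of -1.44 ± 0.30 (SE, n = 3 and 3; adjusted p = 1.4e-04) without overlap. Reads from such copies are hard to place, so this value is uncertain.

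AP000892.4, AP000688.11, LAMA5-AS1 and FKSG66 followed, and none of these 4 was called with the replicate block (adjusted p = 0.068, 0.099, 0.10 and 0.078 by limma). LAMA5-AS1 (chr20:62349601-62352150), antisense to the laminin gene LAMA5 and inside its body, held 159.6, 198 and 256 scaled reads of H3K18ac with DMSO and 142, 84.1 and 98.5 with MS275. Its change was -0.93 ± 0.25 (SE, n = 3 and 3; adjusted p = 0.0039). The others changed by -1.05, -0.94 and -0.89 on the log2 scale, with MS275 below DMSO in every library. Without MS275 replicate 2, the calls at LAMA5-AS1, AP000688.11 and FKSG66 were lost (adjusted p = 0.14, 0.071 and 0.16 by limma), and each was also lost without at least 1 other library.

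The single rise of H3K18ac was at NKAIN3, coding for a membrane protein that interacts with a sodium pump subunit. Its peak (chr8:62248201-62249550) held 12.5, 24.1 and 29.6 scaled reads with DMSO and 54.5, 33 and 30.4 with MS275, a change of 0.87 ± 0.28 (SE, n = 3 and 3; adjusted p = 0.018). The lowest library with MS275 was only just above the highest with DMSO, and the call was lost without DMSO replicate 1 (adjusted p = 0.25), MS275 replicate 1 (adjusted p = 0.19) or MS275 replicate 2 (adjusted p = 0.054), as it was with the replicate block (adjusted p = 0.078 by limma). The DMSO input held 26.1 scaled reads, so the 6 ChIP libraries with DMSO averaged 1.01 times the input, and the MS275 input held 17. H3K18cr at NKAIN3 changed by 0.49 ± 0.26 (SE, n = 3 and 3; adjusted p = 0.19), which did not pass the test.

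**Figure D4:**
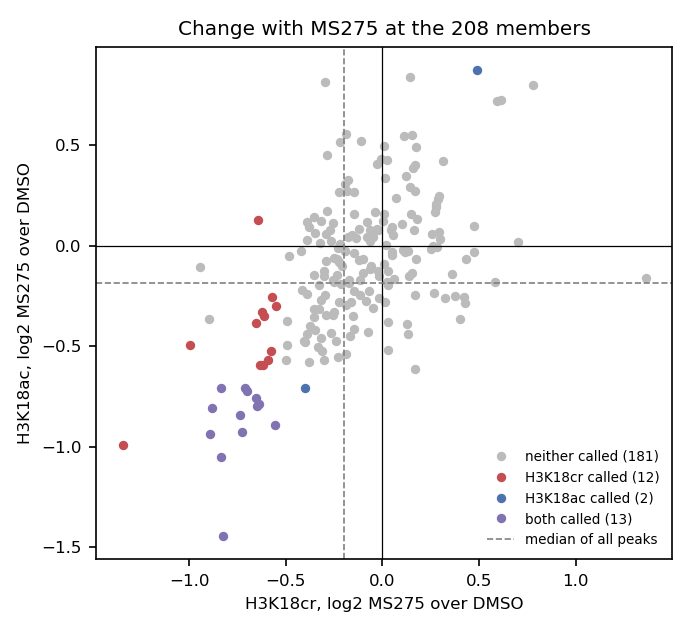
Each point is 1 of the 208 members, with the log2 change of H3K18cr on the x axis and of H3K18ac on the y axis (MS275 over DMSO, means of 3 libraries). Dashed lines mark the median of all peaks, -0.20 and -0.19; the 13 members called for both marks lie at the lower left and NKAIN3 alone at the upper right among called members. Under TMM scaling all values move up by 0.24 and 0.25.

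Whether the marks responded differently was tested as an interaction over the 12 ChIP libraries. No member passed at an adjusted p under 0.05, as did 0% of all 40266 peaks by limma. At an unadjusted p under 0.05 there were 7 members by limma, 4 by edgeR and 3 by DESeq2, against 739, 752 and 445 of all 40266 peaks. Neither edgeR nor DESeq2 called any peak after adjustment. The 25 and 15 calls of the marks thus do not show a difference between them.

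The direction of these changes depends on how the libraries are scaled. The deposited values are scaled to the largest library, without a spike-in that would give absolute levels. By western blot, the study found more histone crotonylation in HCT116 cells with MS275. Its ChIP-qPCR found more H3K18cr at several loci, among them promoters and repeats. The study describes the lower ChIP-seq reads over gene starts as a relative decrease, and proposes a rise of the marks elsewhere in the genome. Scaling on the reads in peaks (TMM) shifted the median of all peaks by 0.24 for H3K18cr and 0.25 for H3K18ac on the log2 scale, and the median of the members became 0.09 and 0.14. With it, H3K18cr was lower at 8 members and higher at 5, against 11.1% lower and 1.78% higher of all peaks. H3K18ac was lower at 14 and higher at 16, against 16.5% and 4.49%. Relative to the median of all peaks, the median member was 0.05 higher for H3K18cr and 0.08 higher for H3K18ac, and promoter peaks near an expressed gene were 0.37 and 0.44 lower, under either scaling. H3K18cr at HIST1H4J remained lower with TMM at -0.76 (adjusted p = 0.0015), as did AP000688.11 at -0.65 (adjusted p = 0.011), whereas ACOT1 at -1.11 (adjusted p = 0.097) and CFAP54 at -0.50 (adjusted p = 0.058) no longer passed.

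Single libraries also moved these counts. H3K18cr was called, in either direction, at 16 members without DMSO replicate 1, 43 without DMSO replicate 3 and 14 without MS275 replicate 2. In the same fits 6188 of 39794, 12604 of 39788 and 5920 of 39814 of all peaks were called. H3K18ac was called, in either direction, at 23 without DMSO replicate 1, 5 without DMSO replicate 2, 3 without MS275 replicate 2 and 4 without MS275 replicate 3. Over all peaks the calls moved alike, with 9316 of 39928, 3062 of 39931, 1443 of 39983 and 1903 of 39933. Outside the bodies of expressed genes, 15 of 145 members were called for H3K18cr and 7 for H3K18ac. Over all peaks in any position, 9303 of 40026 and 6640 of 40122 were called. The share over all peaks outside such bodies was not computed.

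The share of members with lower H3K18cr rose with their enrichment. It was 0 of 24 members with a log2 ratio to input under 0.5, 2 of 81 from 0.5 to 1, 7 of 61 (11.5%) from 1 to 1.5, 10 of 31 (32.3%) from 1.5 to 2, and 6 of 11 above 2. In the same 5 bins, from the lowest up, it was 0.426%, 5.54%, 31.3%, 69.1% and 92.2% at promoter peaks near an expressed gene and 0.195%, 1.13%, 9.67%, 37.4% and 53.7% in peaks away from gene starts. For H3K18ac, from 1 to 1.5 and from 1.5 to 2, it was 4.92% and 22.6% in the members, 18.0% and 48.9% near an expressed gene and 3.59% and 17.0% away from gene starts. The members' shares were below those near an expressed gene in each bin named, and the share rose with enrichment in those classes too. These shares are descriptions, since enrichment and change share the DMSO libraries, and the highest bin holds few members.

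**Figure D5:**
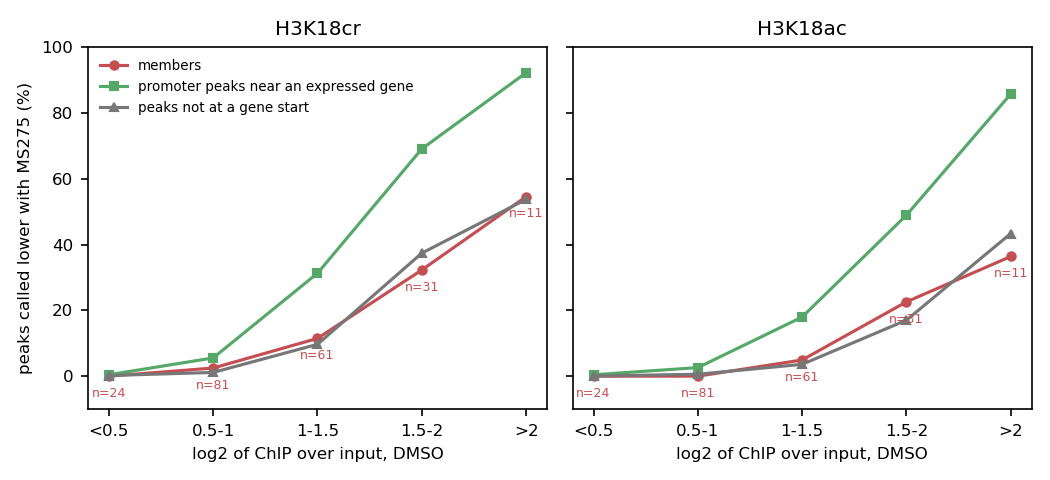
The x axis is the enrichment over input with DMSO (log2, in bins) and the y axis the percentage of peaks called lower with MS275 in each bin, for the members, promoter peaks near an expressed gene and peaks away from gene starts; n is the number of members. From 1.5 to 2, H3K18cr was called lower at 32.3% of members, 69.1% of promoters near an expressed gene and 37.4% of peaks away from gene starts.

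CpG content moved with the response. H3K18cr fell at 12 of 35 CpG-rich members (34.3%) and at 13 of 173 others (7.51%), and the median changes were -0.35 and -0.11 on the log2 scale. Near an expressed gene the shares were 64.7% and 44.9%, and away from gene starts 42.0% and 7.70%. H3K18ac fell at 10 of 35 CpG-rich members and 4 of 173 others (2.31%), against 52.4% and 32.9% near an expressed gene and 30.3% and 3.56% away from gene starts. Among peaks that were not CpG-rich and had a log2 ratio of 1 to 1.5, H3K18cr fell at 4 of 52 members (7.69%), at 29.3% near an expressed gene and at 8.59% away from gene starts. The part of CpG content and enrichment in the lower share of the members was not tested.

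RNA of the member genes was low by choice in both treatments. Of 217 genes, 121 were listed at 0 in all 8 libraries, 40 had counts only with DMSO, 38 only with MS275 and 18 with both. In 70 genes the counts came from a single library. The 4 DMSO libraries held 56, 4, 99 and 70 counts summed over these genes and the MS275 libraries 70, 4, 40 and 76, so the groups overlapped, and replicate 2 of each treatment held the least. The largest differences were at PEX5L-AS2, XXyac-YX65C7_A.3 and SLC35F4, an orphan solute carrier gene, with 9 counts in total with DMSO and 0 with MS275 each. All 9 counts of PEX5L-AS2 came from DMSO replicate 4, and 4 further genes also differed by 9, of which HIF1A-AS2 and LAMA5-AS1 had theirs in MS275 replicate 1. As a gene with more RNA after MS275 would have passed the limit of 10 and left the set, these counts cannot show induction.

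The same genes were looked up in mouse colon epithelium, where about as large a share was expressed as among silent HCT116 genes without a peak. Of the 217 gene names, 87 had a match by name, of which 20 (22.99%) had a mean of at least 1 CPM (counts scaled to the library total) and 11 (12.6%) at least 10 CPM. Among HCT116 genes that were silent and had no peak, 21.9% of 2140 had at least 1 CPM and 8.93% at least 10 CPM, and the differences were not tested. An H3K18cr peak lay within 1 kb of the mouse start in 20.7% of the matched member genes and in 14.3% of silent genes without a peak, and an H3K4me3 peak in 40.2% and 39.0%. For expressed HCT116 genes with a peak, these values were 88.2%, 78.3% and 91.7%.

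The member genes with the highest mouse counts, named after their values were seen, included genes known from the gut epithelium, and others. ZG16, a lectin of goblet cell mucus, had 16737, 17386 and 10994 counts in the 3 mouse libraries, and its HCT116 peak (chr16:29777701-29780550) held 60, 90.1 and 74.2 scaled reads of H3K18cr with DMSO over 36.5 in the input. GUCA2A, coding for the gut hormone guanylin, had 5784, 5650 and 4241 mouse counts, and 71, 73.7 and 61.9 scaled reads of H3K18cr in HCT116 over 40.4 in the input. TMPRSS2, a membrane serine protease gene of epithelia, had 4426, 5290 and 4789 mouse counts, and 15, 10.9 and 12.4 scaled reads over 3.91. All 3 were listed at 0 in every HCT116 RNA library.

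CD177, a surface protein gene of neutrophils, ranked between ZG16 and GUCA2A with 3578, 7591 and 7112 mouse counts, and had neither an H3K18cr nor an H3K4me3 peak within 1 kb of its mouse start. In HCT116 its peak (chr19:43353901-43354350) held 19, 15 and 10.8 scaled reads of H3K18cr over 9.13 in the input.

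RNF186, a ubiquitin ligase gene of colon epithelium, and EPS8L3, an actin regulator gene of microvilli, had 1657 to 1902 and 1566 to 2022 mouse counts. In HCT116, RNF186 held 23, 21.8 and 9.28 scaled reads of H3K18cr over an input of 13, with 1 library below the input, and EPS8L3 40, 27.3 and 43.3 over 20.9. GUCA2A, TMPRSS2, RNF186 and EPS8L3 carried both an H3K18cr and an H3K4me3 peak in mouse colon, and ZG16 only the latter. With MS275, neither mark changed at an adjusted p under 0.05 at any of these 5 genes or CD177 in HCT116.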

How the data were processed

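The authors counted reads of 14 HCT116 ChIP and input libraries in MACS peaks and deposited log2 values of reads scaled to the largest library, with 0.9 read in place of 0 reads. The libraries used to call these peaks are not given in the sources used here. Per the labels and methods, reads were trimmed with Trim Galore (0.4.2 in the submitters' processing notes, with an older version also named in the methods) and mapped to GRCh38 or GRCm38, and duplicates and reads of low mapping quality were removed. The deposited RNA-seq values are counts per gene of poly(A)-selected, directional libraries. The deposited mouse ChIP values are a signal, reads scaled per library, and only the peak positions were used.

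From these files, whole reads were recovered in all 14 libraries (100% of values). Members and gene lists were chosen with earlier results of these data known. Peaks with at least 10 scaled reads in at least 3 libraries were tested with limma 3.58.1 (trend, moderated statistics, R 4.3.3) on the log2 values, with Benjamini-Hochberg adjustment over all peaks tested and a threshold of 0.05. Fits were tested on simulated data. Replicate numbers did not enter as a block, although the study paired replicates in a test over gene starts. Alternatives were TMM scaling, edgeR 4.0.16 and DESeq2 1.42.0 on recovered reads, no filter, a replicate block and leaving out each library. Others were count limits of 5 and 20, distances taken from the peak centre, and strict members. Scaling in edgeR was the deposited one, whereas DESeq2 set its own from the reads in peaks. After seeing the data, members with a named gene within 1 kb and members outside bodies of expressed genes were added. Depths are given with the results, and the intervals of single libraries were not computed.

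Genes named were the 12 most enriched strict members with 10 scaled reads in the input, the 5 largest called falls and rises per mark (the 3 largest where none passed), the leading strict members of each family, members at the limits of the rule and the 3 largest RNA differences. The other names were chosen after their values were seen. Gene features came from GENCODE 44 and sequences from GRCh38 and RefSeq. RefSeq promoters matched only 80 of 117 protein-coding member genes (68.4%), so composition was computed at peak centres instead.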

Additional observations from a re-analysis of the deposited data

How the results depend on the processing

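Among counts of members called for the change with MS275, H3K18cr (25) became 6 of 108 in strict members, 13 with TMM, 5 of 60 with an adjusted p by DESeq2 (3513 of 16746 over all peaks) and 15 of 145 outside bodies of expressed genes, and ranged from 14 to 43 when 1 library was left out. H3K18ac (15) became 3 in strict members, 30 with TMM, 1 with the replicate block and 7 outside bodies of expressed genes, and ranged from 3 to 23 when 1 library was left out. The causes were not tested. Over all peaks in any position, the main fits called 9303 of 40026 for H3K18cr and 6640 of 40122 for H3K18ac. The replicate block gave 29 calls for H3K18cr (10654 of 40026 over all peaks). With it, H3K18cr was called at HIST1H2BB (limma adjusted p = 0.018). The study used a paired test on the marks over gene starts, whereas no label says what a shared number means. Correlations of same-numbered deviations were 0.11, 0.073 and 0.23 for H3K18cr and -0.21, 0.046 and -0.13 for H3K18ac, not all over 0.1. For H3K18cr each was the highest of its DMSO library over the MS275 libraries. For H3K18ac the highest value was 0.25, between DMSO replicate 3 and MS275 replicate 1. The pairing thus remains uncertain. The difference between marks and the interaction had 0 member calls under every alternative run, where DESeq2 gave 33 members an adjusted p for the former. Of 148 alternative values for 14 named changes, 124 kept their side of the threshold, 18 lost the call, 6 gained it and 0 changed direction. DESeq2 gave no adjusted p at 6 more, ACOT1, HIST1H2BB, SPP2, CALB1, SNORD3D and NKAIN3, which are not counted. The median change of the members was -0.24 to 0.09 for H3K18cr and -0.38 to 0.20 for H3K18ac over TMM and single replicate pairs, where TMM turned the sign for both marks, and pair 1 alone (0.20) for H3K18ac. DESeq2, with its own scaling on the reads in peaks, also turned the sign and gave 0.11 for H3K18cr and 0.15 for H3K18ac. Peaks with few reads, such as ACOT1 and OR2Y1, and the single input per treatment limit the precision of enrichment.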
